A study of Homo sapiens with 8 samples.

Results

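The endoplasmic reticulum (ER) folding and unfolded protein response genes are 35 genes, taken by symbol as the rows of the count table whose Ensembl identifiers map to that list, out of 58336 genes in all. Each of the 35 passed the filter on low counts, which left 15220 genes. Their mRNA was counted by sequencing of polyadenylated RNA from SUM159, a triple-negative human breast cancer line long kept in culture, in 8 libraries. SUM159 cells labelled ITGB4 high gave 2 libraries and clone 1 of cells labelled ITGB4 low gave 3, both grown in dishes. Another 3 libraries came from ITGB4 low clone 1 cells that had been injected into mice by the tail vein. Those mice received bleomycin by the trachea, which injures lung tissue and sets off inflammation there, and the tumour cells were recovered from the dissociated lungs, held in a dish overnight and sorted the next day for the red protein tdTomato. ITGB4 encodes the beta-4 integrin subunit of hemidesmosomes. Every ITGB4 low library came from a single clone, so what belongs to the clone cannot be told apart from what belongs to low ITGB4. Injection, lung growth, bleomycin, dissociation, the night in a dish and sorting likewise moved together in the recovered cells and cannot be told apart.

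Proteins bound for secretion or for membranes enter the ER through the SEC61 channel, receive glycans and disulfide bonds, and fold with the help of chaperones, of which HSPA5 (BiP) is the central one. Chains that fail to fold are drawn back into the cytosol and destroyed by ER-associated degradation. The sensors ERN1 (IRE1), ATF6 and EIF2AK3 (PERK) watch the folding load. In the unfolded protein response, ERN1 splices XBP1 mRNA and ATF6 is cut to release its active part, and both then raise transcription of chaperones and degradation genes. Cells that secrete much matrix carry a high folding load. Counts per gene do not separate the spliced from the unspliced form of XBP1.

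A DNA motif ties part of these genes together. The ER stress response element, through which ATF6 and XBP1 act beside the factor NF-Y, reads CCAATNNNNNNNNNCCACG, and a second form reads ATTGGNCCACG. Both were searched on both strands in RefSeq promoter windows on GRCh38.p14, from 250 bases before to 50 bases after each start. Windows were found for 32 of the 35 genes, and the others, DERL1, PDIA3 and SEC24D, were not searched. The element was in 7 of the 32 genes and in 9 of their 45 windows (20.0%), against 27 of all 35116 windows (0.08%). Its second form was in HERPUD1 and SDF2L1, in 4.4% of the genes' windows against 0.05% of all windows. The same CANX stretch was counted in 3 of the 9 windows. By gene, 25 of all 27305 (0.09%) held the first form. The genes were listed for their part in ER folding and the unfolded protein response, so these shares describe them and test nothing. The 10 stretches are printed because they are the sequence these genes share. Each is read from the CCAAT or ATTGG end, and capitals mark the fixed letters.
CALR, chr19:12938384-12938402, opposite strand: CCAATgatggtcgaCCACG
CANX, chr5:179698778-179698796, gene strand: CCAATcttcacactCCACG
CRELD2, chr22:49918554-49918572, opposite strand: CCAATccgagttcgCCACG
HSP90B1, chr12:103930216-103930234, gene strand: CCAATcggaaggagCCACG
HSP90B1, chr12:103930321-103930339, opposite strand: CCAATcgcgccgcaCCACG
HSPA5, chr9:125241391-125241409, gene strand: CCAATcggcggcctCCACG
PDIA6, chr2:10812853-10812871, gene strand: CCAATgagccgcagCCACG
XBP1, chr22:28800603-28800621, gene strand: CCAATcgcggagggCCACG
HERPUD1, chr16:56932025-56932035, gene strand: ATTGGgCCACG
SDF2L1, chr22:21642114-21642124, opposite strand: ATTGGtCCACG

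The first base of these elements lay between 9 and 225 bases before a start, 66 bases before it in HSPA5. The letters CCACG alone, which every match above contains, was in 82.2% of the 45 windows against 38.09% of all windows. The CCAAT box, which the elements contain too, was in 71.1% against 34.61%. The UPR element TGACGTGG, whose reverse complement overlaps CCACG, was in DNAJC10 and SSR3 only among the 32 genes (4.4% of their windows, 0.73% of all). The cAMP response element TGACGTCA was in none of the 45 windows and in 1.85% of all windows. A match is a run of letters and no measure of binding.

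The 250 bases before the start are shown for HSPA5, the central chaperone, for HSP90B1, which holds the element in both orientations, for HERPUD1, which holds the second form, and for EDEM1, which holds neither and was the gene of the 35 with the largest fall from ITGB4 high to ITGB4 low cells. Each is written on the gene's strand, and capitals mark either form of the element.
HSPA5, minus strand, chr9:125241344-125241593: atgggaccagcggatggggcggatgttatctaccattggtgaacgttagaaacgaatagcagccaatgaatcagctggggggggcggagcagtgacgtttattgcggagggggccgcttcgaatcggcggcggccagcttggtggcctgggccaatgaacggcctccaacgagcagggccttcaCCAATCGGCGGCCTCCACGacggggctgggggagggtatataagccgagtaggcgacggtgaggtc
HSP90B1, plus strand, chr12:103930160-103930409: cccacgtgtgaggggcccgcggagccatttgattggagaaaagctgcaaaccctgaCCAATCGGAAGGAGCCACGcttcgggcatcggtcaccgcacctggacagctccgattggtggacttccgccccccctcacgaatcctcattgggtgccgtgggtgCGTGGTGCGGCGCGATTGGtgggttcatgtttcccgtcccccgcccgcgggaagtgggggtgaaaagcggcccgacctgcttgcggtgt
HERPUD1, plus strand, chr16:56931892-56932141: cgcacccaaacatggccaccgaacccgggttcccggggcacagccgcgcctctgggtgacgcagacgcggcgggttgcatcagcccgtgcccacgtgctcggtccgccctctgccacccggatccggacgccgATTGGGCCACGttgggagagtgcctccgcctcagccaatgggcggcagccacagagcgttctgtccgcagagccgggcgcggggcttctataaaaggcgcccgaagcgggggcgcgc
EDEM1, plus strand, chr3:5187457-5187706: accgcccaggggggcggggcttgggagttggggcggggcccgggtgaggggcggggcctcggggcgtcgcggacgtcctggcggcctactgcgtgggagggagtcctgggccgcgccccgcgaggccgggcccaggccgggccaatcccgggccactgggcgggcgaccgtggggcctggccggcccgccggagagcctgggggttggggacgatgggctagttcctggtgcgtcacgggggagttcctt
EDEM1's stretch holds CCACG 2 times, both on the opposite strand and so written cgtgg here, and the CCAAT box 1 time. They are not at the spacing of either form.

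The libraries held 20.41 to 27.22 M counts. ITGB4 followed the labels in the dish-grown cells, at 419.9 and 376 CPM (counts scaled to library size) in ITGB4 high and 5.29, 7.46 and 9.13 CPM in ITGB4 low libraries, and reached 401, 376 and 407 CPM in the lung-recovered cells. The mesenchymal filament gene VIM was at 4261 to 5024 CPM in every library. The epithelial cadherin CDH1 and the progesterone receptor PGR were at 0, as known of this triple-negative line. ESR1 reached at most 0.117 CPM, and ERBB2 was at 63.4 to 71.6 CPM. The mesenchymal gene CDH2 was at 85.9 and 77.2 CPM in ITGB4 high, 252 to 260.1 in ITGB4 low and 137 to 141 in lung-recovered libraries. ZEB1, also mesenchymal, was at 70.7 and 75, 131 to 144 and 97.4 to 101 CPM in the same order. Plasma cells, which are rich in ER folding proteins, are a cell type that a lung suspension could hold, although the sort for tdTomato should remove them. Of their 6 markers, MZB1, TNFRSF17, POU2AF1 and IRF4 were at 0 in all lung-recovered libraries, and JCHAIN reached at most 0.0376 CPM. The remaining one, SDC1, which epithelial cells express too, was at 231 and 233 CPM in ITGB4 high, 31.5 to 38.6 CPM in ITGB4 low and 91.3 to 102 CPM in lung-recovered libraries. The summed level of 10 myeloid markers was 3.12 to 3.7, 5.27 to 5.93 and 5.97 to 6.81 CPM in the 3 groups, and TYROBP and AIF1 were at 0 throughout. Among 8 lymphocyte markers the sum never passed 0.201 CPM. Host cells in these lungs would be mouse cells, while only human genes were counted. These marker levels therefore cannot show whether host cells were present. In bulk samples, fewer cells of a type and less RNA per cell cannot be told apart.

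The first question was how dish-grown ITGB4 low clone 1 cells differ from ITGB4 high cells. In ITGB4 low cells, 3 of the 4 listed chaperones, all 5 listed co-chaperones and all 6 listed disulfide genes were higher, and the exception, CANX, was not called. Of the 8 genes of ER-associated degradation, 3 were higher and 5 lower. Higher too were 2 of the 5 genes of the sensor group, ERN1 and WFS1, 2 of the 5 translocation genes and 1 of the 2 COPII genes. By edgeR's quasi-likelihood test (adjusted p under 0.05 over all genes tested), 22 of the 35 genes were higher, against 28.6% of all tested genes. Lower were 5 of the 35, against 27.6% of all. At least 1.5-fold higher were 10 genes, against 14.7% of all, and no gene was lower by 1.5-fold (8.17% of all), since the largest fall, of EDEM1, was 1.44-fold. HSP90B1 lay just inside that limit (log2 0.59) and EDEM2 just outside (log2 0.58). The median log2 fold change over the 35 genes was 0.34, against 0.0009 over all tested genes. For 32 of the 35 genes no ITGB4 low library fell within the ITGB4 high range or the reverse, against 68.7% of all. These genes had appeared in earlier results of these data, so the counts describe them and do not test the list.

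**Figure D1:**
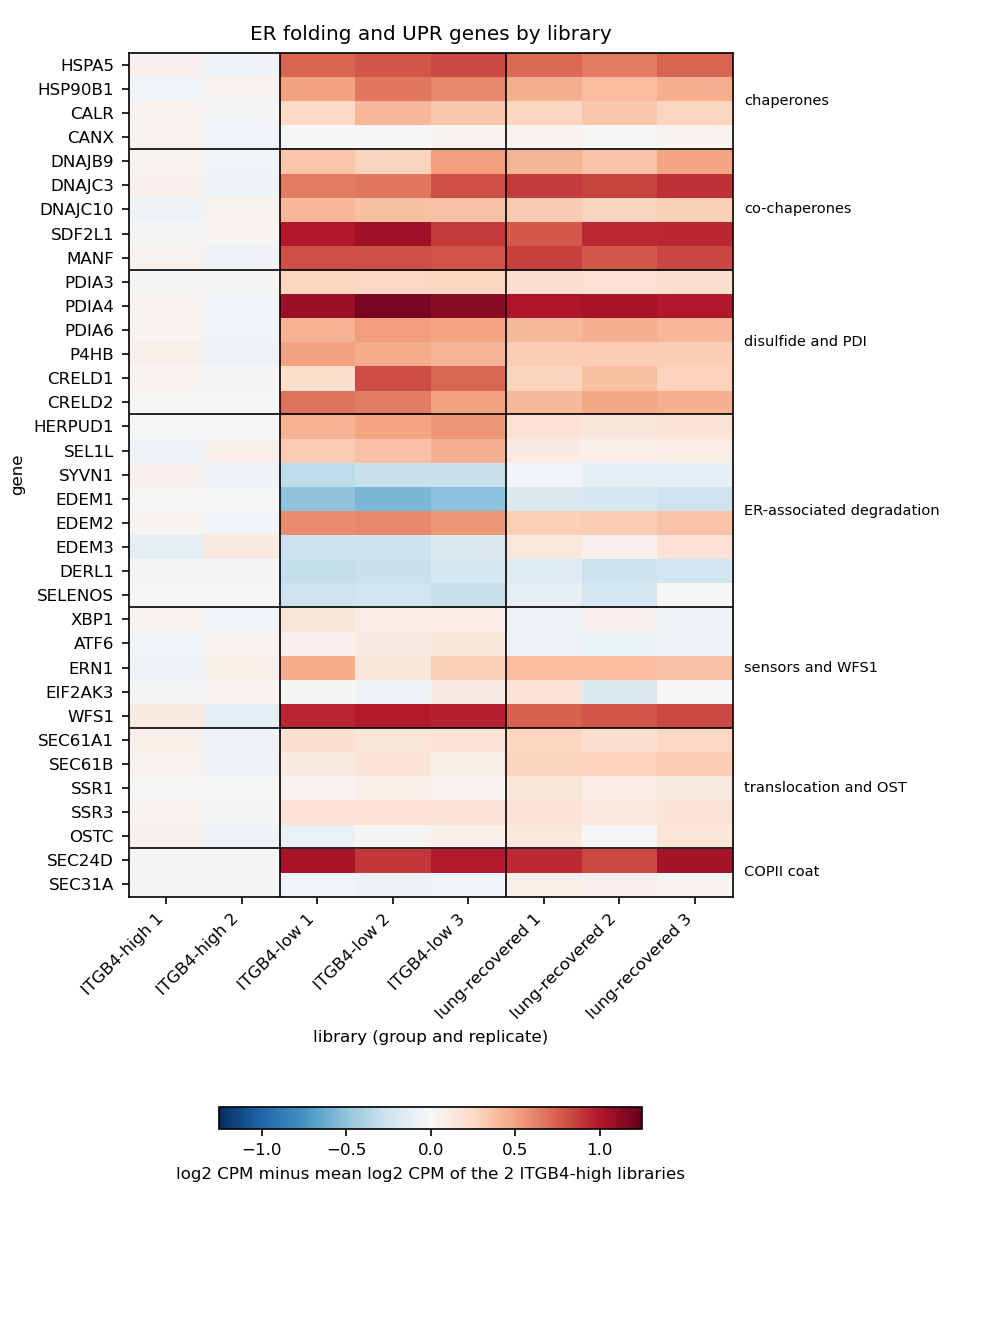
Level of each of the 35 genes (rows, grouped by role) in each of the 8 libraries (columns), as log2 CPM minus the mean log2 CPM of the 2 ITGB4 high libraries. Red is higher and blue is lower than ITGB4 high. PDIA4 is the reddest row in the ITGB4 low columns, at 356 to 385 CPM against 165 and 174 CPM, and EDEM1 the bluest, at 157 to 165 against 234 CPM.

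Among the chaperones, HSPA5 (ENSG00000044574, hg38 chromosome 9, 125234853 to 125241330), the Hsp70 of the ER lumen, was at 466 and 430.2 CPM in ITGB4 high and at 742, 766 and 793 CPM in ITGB4 low. All 3 ITGB4 low libraries stood above both ITGB4 high libraries, and the log2 fold change was 0.78 (SE 0.05, edgeR adjusted p = 9.25e-11). HSP90B1 (GRP94), the Hsp90 of the ER, was at 554 and 579 CPM in ITGB4 high and at 801, 894 and 861 CPM in ITGB4 low. It too rose without overlap, by 0.59 on the log2 scale (SE 0.052, edgeR adjusted p = 8.19e-09). The lectin chaperones, which hold glycoproteins during folding, parted: CALR, soluble in the lumen, rose 1.27-fold (edgeR adjusted p = 1.64e-05), whereas CANX, anchored in the membrane, gave a log2 difference of 0.01 with a 95% interval of -0.09 to 0.10 (edgeR adjusted p = 0.892). Per exon length CALR was the most abundant of the 35 genes in each group, at 272 ± 6.28 RPKM in ITGB4 high (SD, n = 2), and CANX came next at 205 ± 7.07 RPKM (n = 2). HSPA5 was 6th in ITGB4 high cells, at 115 RPKM, and 3rd in ITGB4 low and lung-recovered cells, at 196 and 186 RPKM.

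All 5 co-chaperones and partners of HSPA5 were higher. SDF2L1 (ENSG00000128228, chromosome 22, 21642261 to 21644298), a luminal partner that keeps client proteins soluble, was at 16.1 and 16.6 CPM in ITGB4 high and at 32.7, 34 and 29.9 CPM in ITGB4 low. Its level was thus close to doubled, a 1.97-fold difference (log2 0.98, SE 0.08, edgeR adjusted p = 3.20e-09). MANF, a secreted ER protein that binds HSPA5, was at 42.3 and 39.7 CPM in ITGB4 high and at 71.4, 71.6 and 70.8 CPM in ITGB4 low. The spread within the ITGB4 low group was small beside the difference, and MANF rose by 0.80 on the log2 scale (SE 0.055, edgeR adjusted p = 2.26e-10). DNAJC3 (p58IPK), a J-domain protein that also restrains EIF2AK3, was at 63.8 and 59.6 CPM in ITGB4 high and at 95.9, 97.1 and 108 CPM in ITGB4 low. It rose 1.63-fold (edgeR adjusted p = 4.12e-09). The J-domain proteins DNAJB9 and DNAJC10, which feed clients toward degradation, rose less (log2 0.39 and 0.38).

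All 6 disulfide genes were higher as well. PDIA4 (ERp72; ENSG00000155660, chromosome 7, 149003062 to 149028641), a disulfide isomerase with an extra thioredoxin-like domain, was at 174 and 165 CPM in ITGB4 high and at 356, 385 and 371 CPM in ITGB4 low. With 2.18-fold (log2 1.13, SE 0.049, edgeR adjusted p = 1.91e-13) it had the largest difference among the 35 genes in this comparison. CRELD2, an ER stress protein with EGF-like repeats, was at 24.7 and 25 CPM in ITGB4 high and at 39.7, 38.6 and 35.1 CPM in ITGB4 low. It rose 1.52-fold (edgeR adjusted p = 3.04e-07). Its relative CRELD1, the least abundant of the 35 genes per exon length, was at 5.81 and 5.65 CPM in ITGB4 high and at 6.65, 10.1 and 9.42 CPM in ITGB4 low. One ITGB4 low library lay close to the ITGB4 high pair, so the log2 difference of 0.61 (SE 0.15, edgeR adjusted p = 0.00156) carried a wide interval of 0.30 to 0.92. The abundant isomerases PDIA6 (log2 0.48), P4HB (log2 0.46), which is also the beta subunit of collagen prolyl hydroxylase, and PDIA3 (log2 0.27), the partner of CALR and CANX, rose by less.

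The 8 genes of ER-associated degradation divided, with 3 higher and 5 lower, beside 28.6% and 27.6% of all tested genes. Calls in both directions were thus common among all genes, and the split is a description. Values per library of the 8 genes are given in full, a choice made after the values were seen. HERPUD1 (ENSG00000051108, chromosome 16, 56932048 to 56944863), a membrane scaffold of the degradation complex, was at 215 and 216 CPM in ITGB4 high and at 291, 303 and 313 CPM in ITGB4 low (log2 fold change 0.49, SE 0.046, edgeR adjusted p = 2.37e-08). SEL1L, the adaptor that brings substrates to the ligase SYVN1, was at 184 and 202 CPM in ITGB4 high and at 241, 249 and 263 CPM in ITGB4 low. EDEM2, a mannosidase that starts the trimming of glycans on misfolded proteins, was at 27.9 and 26.7 CPM in ITGB4 high and at 41.2, 41.3 and 39.8 CPM in ITGB4 low. These were the 3 that rose, SEL1L by 0.38 and EDEM2 by 0.58 on the log2 scale.

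The other two members of the EDEM family fell, although all act on glycans of misfolded proteins. EDEM1 (ENSG00000134109, chromosome 3, 5187646 to 5219957) was at 234 CPM in both ITGB4 high libraries and at 165, 157 and 164 CPM in ITGB4 low, a log2 change of -0.53 (SE 0.045, edgeR adjusted p = 5.66e-09). EDEM3 was at 76.3 and 89.7 CPM in ITGB4 high and at 68.8, 68.8 and 73.5 CPM in ITGB4 low (log2 -0.24, edgeR adjusted p = 0.00372). Its lowest ITGB4 high library lay near the ITGB4 low range, and without ITGB4 high replicate 2 the log2 fold change was -0.12 (edgeR adjusted p = 0.136; 1.85e-04 to 0.136 over 16 alternatives in the processing). SYVN1 (HRD1), the ubiquitin ligase of the complex, was at 70.5 and 65.3 CPM in ITGB4 high and at 54.3, 56 and 56 CPM in ITGB4 low. It thus fell (log2 -0.29, edgeR adjusted p = 1.33e-04) where its adaptor SEL1L rose. DERL1, a channel subunit, fell by 0.25 and SELENOS, which recruits the ATPase VCP to the membrane, fell by 0.26 on the log2 scale.

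**Figure D2:**
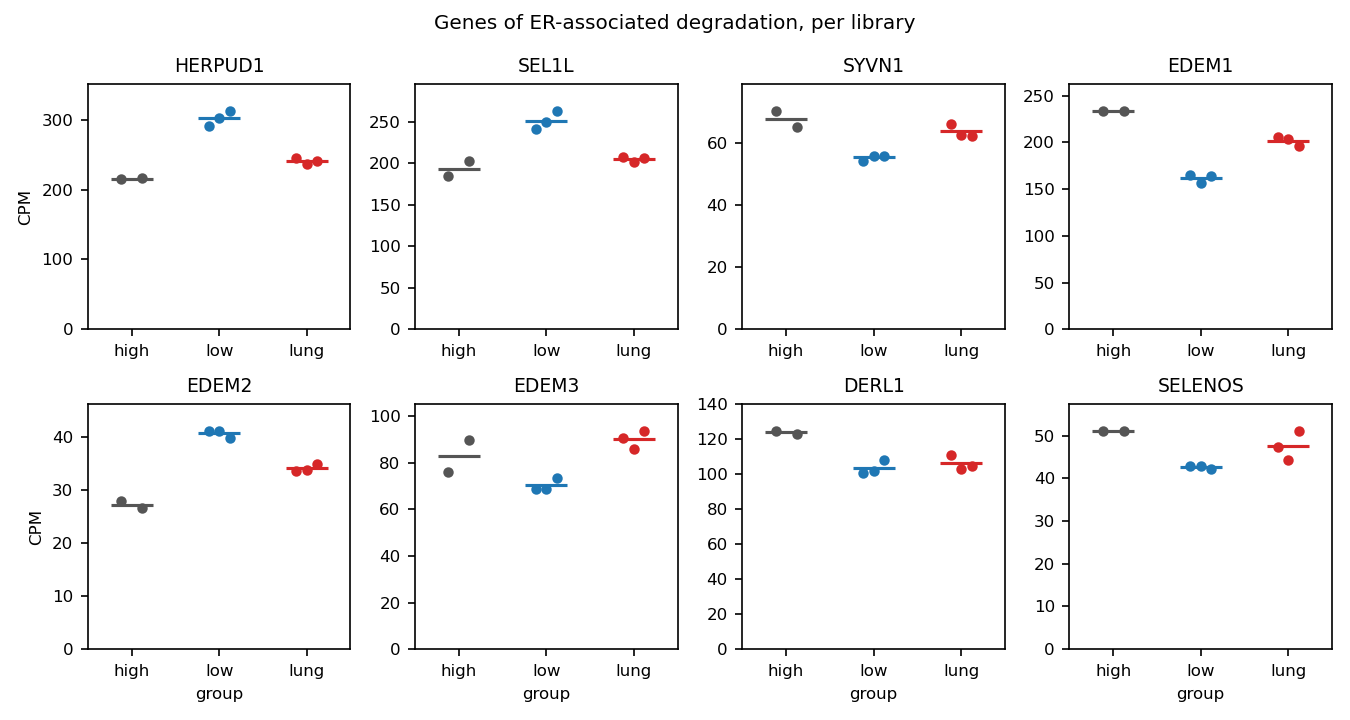
CPM of the 8 genes of ER-associated degradation in each library (points), with the group mean (bar), for ITGB4 high (high, n = 2), ITGB4 low clone 1 (low, n = 3) and lung-recovered cells (lung, n = 3). Each axis starts at 0. HERPUD1, SEL1L and EDEM2 are highest in the low group, whereas EDEM1 is lowest there, at 157 to 165 CPM.

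In the group of sensors and their regulators, ERN1 and WFS1 rose and XBP1, ATF6 and EIF2AK3 were not called. XBP1, the transcription factor downstream of ERN1, was at 517 and 494 CPM in ITGB4 high and at 561, 540.1 and 539 CPM in ITGB4 low (log2 0.11, 95% interval 0.01 to 0.21, edgeR adjusted p = 0.0544). The groups did not overlap, but the adjusted p missed the threshold, and over 16 alternatives it ran from 0.0234, with upper-quartile scaling, to 0.325. ATF6 was at 154 and 161 CPM in ITGB4 high and at 163, 169.6 and 175 CPM in ITGB4 low, a log2 difference of 0.10 (edgeR adjusted p = 0.0707; 0.0181 to 0.362 over the alternatives). EIF2AK3, the kinase that slows translation, was at 31.3 and 32.4 CPM in ITGB4 high and at 32.2, 30.6 and 34.2 CPM in ITGB4 low, overlapping groups with a log2 difference of 0.02 (95% interval -0.15 to 0.19). ERN1, the kinase and endonuclease that splices XBP1, was at 69.6 and 76 CPM in ITGB4 high and at 100.2, 81 and 89.7 CPM in ITGB4 low, and was called higher, 1.24-fold (edgeR adjusted p = 6.65e-04). WFS1, an ER membrane protein known to restrain ATF6, was at 17.1 and 14.7 CPM in ITGB4 high and at 30.6, 31.6 and 30.9 CPM in ITGB4 low. At 1.95-fold (edgeR adjusted p = 2.13e-09) its rise was of the size of that of SDF2L1.

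Of the 5 translocation and glycosylation genes, SEC61A1, the pore of the channel, and SSR3, of the associated TRAP complex, rose, each 1.13-fold. SEC61B gave a log2 difference of 0.11 (edgeR adjusted p = 0.0806), SSR1 one of 0.05 and the oligosaccharyltransferase subunit OSTC one of -0.0013, with a 95% interval of -0.12 to 0.12 for OSTC. The call of SEC61A1 was lost without ITGB4 high replicate 2 (edgeR adjusted p = 0.116; 0.0016 to 0.116 over the alternatives). The COPII coat buds vesicles from the ER toward the Golgi, and its 2 listed genes differed from each other. SEC24D, a cargo-selecting inner coat subunit that carries procollagen, was at 56.7 and 55.3 CPM in ITGB4 high and at 114, 103 and 111 CPM in ITGB4 low. The difference was 0.97 on the log2 scale (SE 0.063, edgeR adjusted p = 9.76e-11), the third in size among the 35 genes after PDIA4 and SDF2L1. SEC31A of the outer coat gave a log2 difference of -0.04, with a 95% interval of -0.13 to 0.05.

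**Figure D3:**
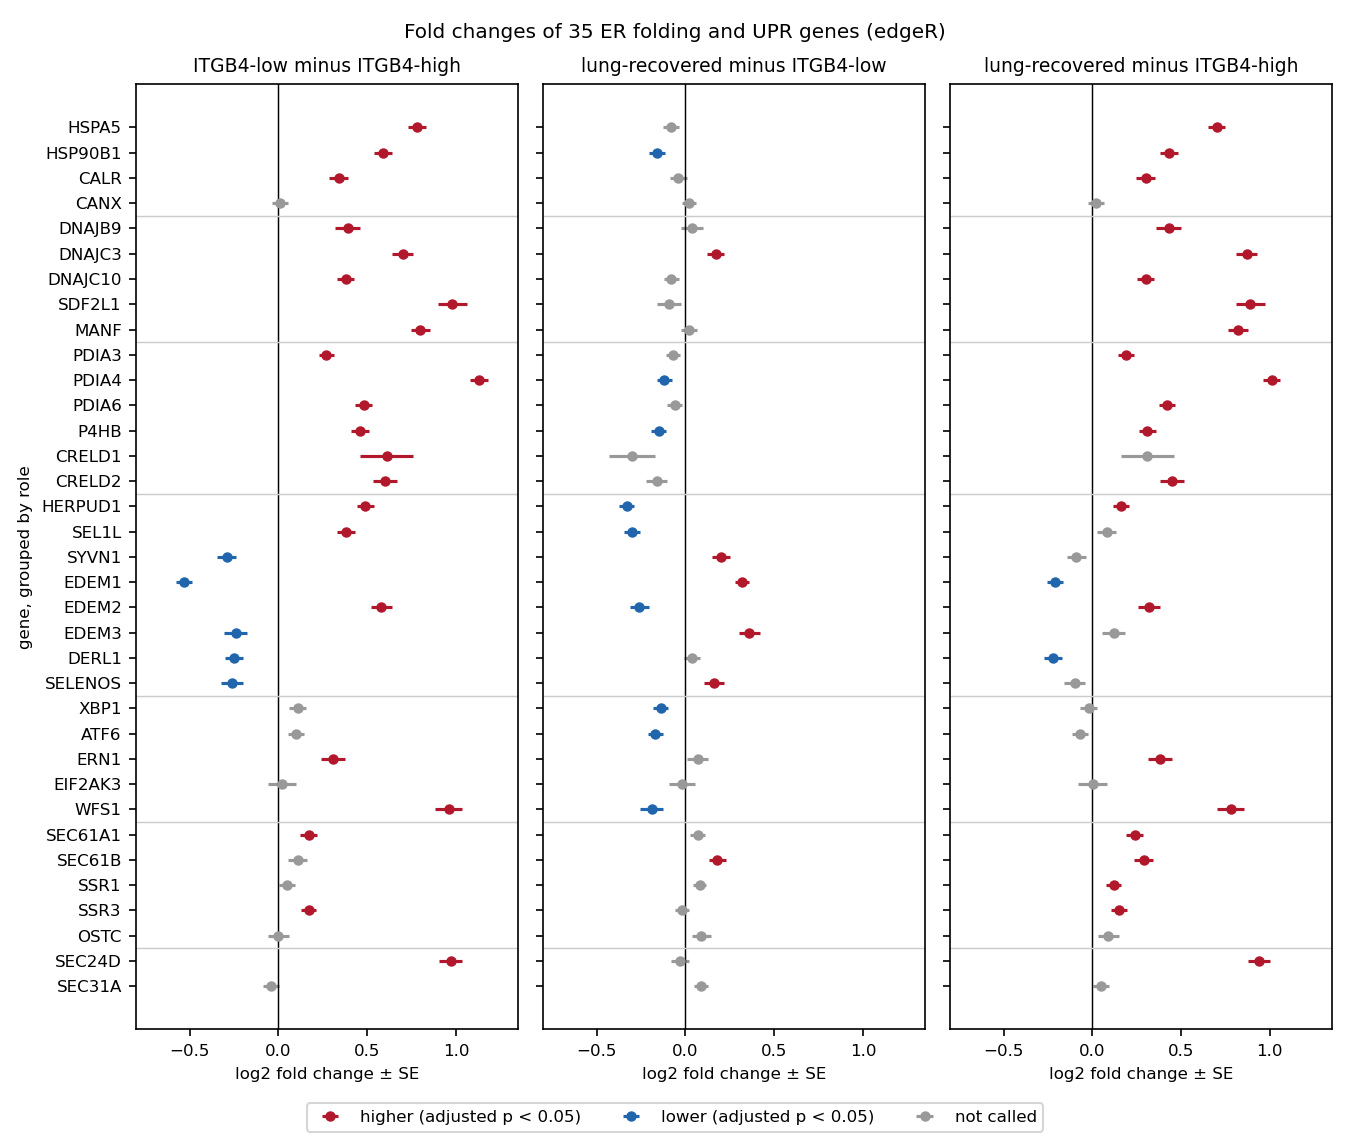
Log2 fold change of each of the 35 genes (points) with its standard error (bars) in the 3 comparisons, from edgeR, on a shared axis. Red and blue points passed an adjusted p of 0.05 and grey ones did not. In the left panel 22 points are red and 5, all of them genes of ER-associated degradation, are blue, and the middle panel has no point past 0.36 on the log2 scale.

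Summed over the 35 genes, ITGB4 high libraries held 8233 and 8009 CPM and ITGB4 low libraries 9864, 10099.8 and 10099 CPM, a ratio of the means of 1.23. Together the genes took 0.793 to 1.01% of a library. The disulfide genes had a ratio of 1.43 and the co-chaperones one of 1.47, while the degradation genes, with members moving both ways, had one of 1.03 with overlapping libraries. Leaving out the 6 most abundant genes gave a ratio of 1.21.

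**Figure D4:**
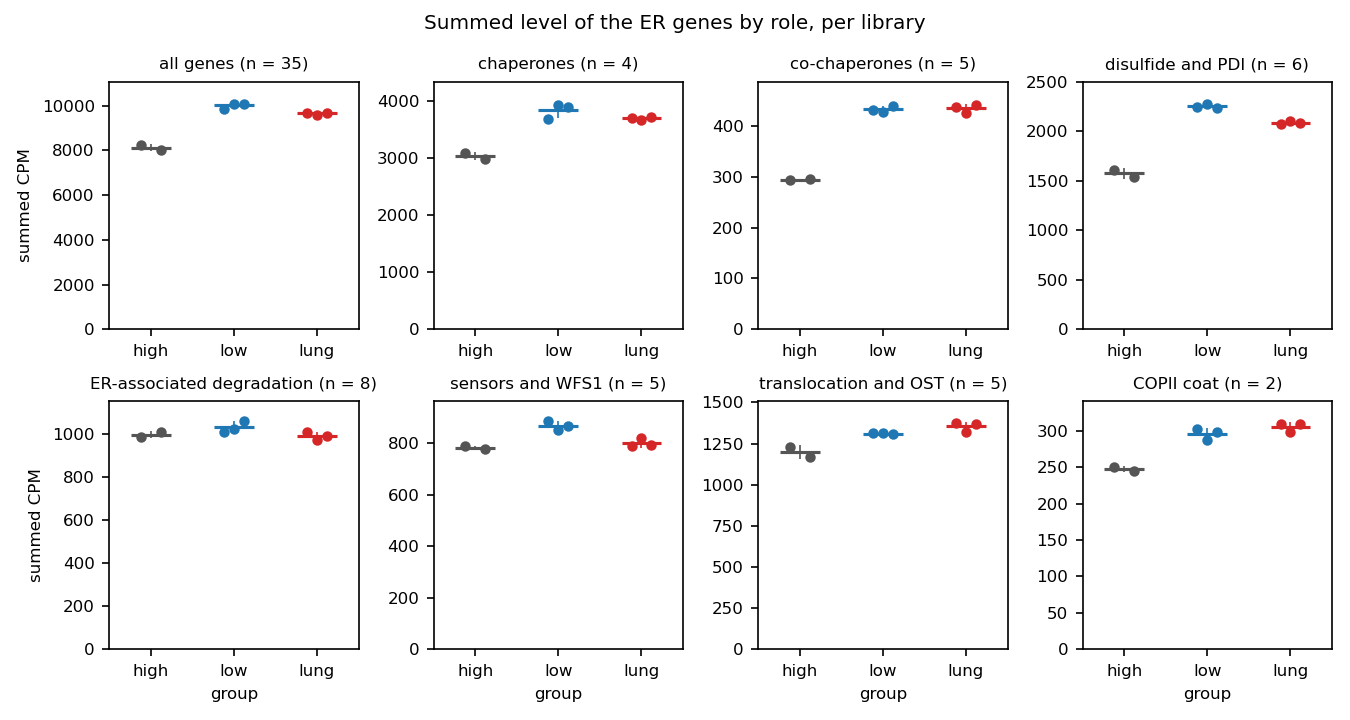
Summed CPM of all 35 genes and of each role in each library (points), with group mean (horizontal bar) and SD (vertical line), for ITGB4 high (high, n = 2), ITGB4 low clone 1 (low, n = 3) and lung-recovered cells (lung, n = 3). Each axis starts at 0. The co-chaperone sum is 293 and 295 CPM in the high group and 427 to 439 CPM in the low group, whereas the sums of the degradation genes overlap.

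The next question was what differs between ITGB4 low clone 1 cells recovered from bleomycin-treated lungs and the same clone in dishes. Most of these genes differed little: the chaperones and isomerases stayed near their dish level, and the largest differences were those of degradation genes. Of the 35 genes, 6 were higher (14.7% of all tested genes) and 9 lower (15.4% of all). No gene reached 1.5-fold in either direction, where 4.84% and 4.58% of all genes were higher and lower, and the largest difference was 1.28-fold. Libraries did not overlap for 22 genes, against 43.3% of all. The median log2 fold change was -0.03, against 0.00031 over all genes. Without lung-recovered replicate 1 the count of lower genes was 5.

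Among the degradation genes, EDEM3 was at 90.6, 85.9 and 93.9 CPM in the lung-recovered libraries, above its 3 ITGB4 low values (log2 0.36, SE 0.058, edgeR adjusted p = 7.21e-05). EDEM1 was at 206, 204 and 196 CPM, likewise above the ITGB4 low range (log2 0.32, SE 0.041, edgeR adjusted p = 5.07e-06). SYVN1 was at 66.2, 62.8 and 62.4 CPM and higher by 0.20 on the log2 scale. HERPUD1 moved the other way, to 245, 237 and 241 CPM (log2 -0.33, SE 0.041, edgeR adjusted p = 3.34e-06), and so did SEL1L, to 207, 201 and 206 CPM (log2 -0.30). EDEM2, at 33.6, 33.9 and 34.9 CPM, fell by 0.26 on that scale. In each of these 6 genes, all of them called, the lung-recovered libraries lay apart from the ITGB4 low libraries. The same held for 43.3% of all tested genes. The lung-recovered and the ITGB4 high cells are both set against the same ITGB4 low libraries here, so the directions of the first 2 comparisons are not independent of each other. SELENOS was called higher (log2 0.16, edgeR adjusted p = 0.0333), a call that 7 of the 16 alternatives did not keep, DESeq2 among them (adjusted p = 0.0838; 0.00862 to 0.235 over the alternatives). DERL1 gave a log2 difference of 0.04 (95% interval -0.06 to 0.13).

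Chaperones differed by less. HSPA5 was at 733, 704 and 739 CPM in lung-recovered cells, just under its lowest ITGB4 low library (log2 -0.08, 95% interval -0.17 to 0.01, edgeR adjusted p = 0.184). HSP90B1 was at 769, 739.9 and 776 CPM and called lower (log2 -0.16, edgeR adjusted p = 0.0102), a call lost without ITGB4 low replicate 2 (adjusted p = 0.0744; 3.45e-04 to 0.0744 over the alternatives). DNAJC3, at 113, 110.5 and 116 CPM, was the co-chaperone that rose (log2 0.17, edgeR adjusted p = 0.0134). That call was lost without ITGB4 low replicate 2 (adjusted p = 0.0631) or without lung-recovered replicate 3 (adjusted p = 0.0713), the other alternatives going down to 0.00306. SDF2L1, at 27.8, 31.2 and 31.4 CPM, and MANF, at 74.2, 69.7 and 73.1 CPM, overlapped their ITGB4 low values.

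Of the disulfide genes, PDIA4 was at 340.5, 347 and 338 CPM (log2 -0.12, edgeR adjusted p = 0.0431) and P4HB was lower by the same order (log2 -0.15, edgeR adjusted p = 0.0111). The PDIA4 call did not hold under 7 of the 16 alternatives (adjusted p 0.00808 to 0.205 over all 16), and the P4HB call was lost without lung-recovered replicate 1 (adjusted p = 0.0632; 0.00296 to 0.0632 over the alternatives). CRELD2 at 33, 34.8 and 33.8 CPM lay under its ITGB4 low values without a call (log2 -0.16, edgeR adjusted p = 0.0528). CRELD1, at 6.97, 7.42 and 6.99 CPM, overlapped the wide ITGB4 low range (log2 -0.30, edgeR adjusted p = 0.0905), and without ITGB4 low replicate 1, its lowest library there, the log2 fold change was -0.45 (adjusted p = 0.00311; up to 0.371 over the alternatives).

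Among the sensors, ATF6, at 151, 149 and 150.2 CPM, was lower (log2 -0.17, edgeR adjusted p = 0.00386). XBP1, at 482, 523 and 489 CPM, was lower as well (log2 -0.14, edgeR adjusted p = 0.0223), but not without lung-recovered replicate 1 (adjusted p = 0.149) or replicate 3 (adjusted p = 0.104), the range over the alternatives being 0.00864 to 0.149. WFS1, at 26.4, 27.2 and 28.1 CPM, was called lower at an edgeR adjusted p of 0.0331, which 8 of the 16 alternatives did not keep, DESeq2 among them (adjusted p = 0.114; 0.0203 to 0.14 over the alternatives). ERN1 stood at 95.2, 95.3 and 93.8 CPM, inside its ITGB4 low range (log2 0.07, 95% interval -0.06 to 0.20). EIF2AK3 stood at 35.5, 28.3 and 31.7 CPM and overlapped as well (log2 -0.02, 95% interval -0.17 to 0.13). SEC61B, a small subunit of the channel, rose from 62 to 66 CPM in ITGB4 low libraries to 71.5, 72 and 73.1 CPM (log2 0.18, edgeR adjusted p = 0.00723). SEC24D stood at 107, 99.4 and 115 CPM and overlapped its ITGB4 low values (log2 -0.03, 95% interval -0.14 to 0.08).

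The last question was how the lung-recovered cells, whose ITGB4 level was back in the range of ITGB4 high cells, compare with ITGB4 high cells for these genes. In the lung-recovered cells, 22 of the 35 genes were higher (26.2% of all tested genes) and 2, EDEM1 and DERL1, were lower (25.0% of all). At least 1.5-fold higher were 7 genes (12.8% of all), and none of the 35 was lower by that much (5.72% of all), the largest fall being 1.16-fold. Groups did not overlap for 27 genes, against 66.8% of all. The median log2 fold change was 0.29, against 0.01 over all genes. This comparison shares its libraries with the first 2.

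The 7 genes past 1.5-fold were PDIA4 (log2 1.01, SE 0.049, edgeR adjusted p = 1.75e-12), SEC24D (0.94), SDF2L1 (0.89), DNAJC3 (0.87), MANF (0.82), WFS1 (0.78) and HSPA5 (0.70, SE 0.05, edgeR adjusted p = 6.43e-10). They include the main Hsp70, partners of it, an isomerase and a procollagen-carrying coat subunit. HSP90B1 was higher by 0.43 on the log2 scale and CRELD2 by 0.45. Among the degradation genes, HERPUD1 stayed higher by 0.16 and EDEM2 by 0.32, and EDEM1 (log2 -0.21, edgeR adjusted p = 5.87e-04) and DERL1 (log2 -0.22, edgeR adjusted p = 0.00107) were lower. SEL1L (0.08, 95% interval -0.03 to 0.19), SYVN1 (-0.09, -0.20 to 0.02), EDEM3 (0.12, -0.01 to 0.25) and SELENOS (-0.10, -0.23 to 0.03) were not called, with the intervals on the log2 scale. XBP1 (-0.02, 95% interval -0.12 to 0.08), ATF6 (-0.07, -0.17 to 0.03) and EIF2AK3 (0.0016, -0.17 to 0.17) were not called either, whereas ERN1 was higher by 0.38 on the log2 scale. Of the translocation genes, SEC61B (log2 0.29), SEC61A1 (0.24), SSR3 (0.15) and SSR1 (0.12) were higher. The SSR1 call, at an edgeR adjusted p of 0.0267, was lost under 7 of the 16 alternatives (adjusted p 0.0118 to 0.121 over all 16). The SSR3 call was lost without ITGB4 high replicate 2 (edgeR adjusted p = 0.0647; 0.00194 to 0.0647 over the alternatives).

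Genes with and without the promoter element were set side by side as a description. In ITGB4 low against ITGB4 high, 7 of the 9 genes with either form were higher and CANX and XBP1 were not called, with a median log2 fold change of 0.49. Of the 23 genes whose windows held neither form, 13 were higher and 4 lower, with a median of 0.17 and a range of -0.53 to 1.13. Among all tested genes, 28.6% were higher and 27.6% lower. PDIA4, MANF, DNAJC3 and WFS1, among the largest risers, were in the second set. In lung-recovered against ITGB4 low cells, 3 of the 9 genes were lower and the median was -0.09. Of the 23, 6 were higher and 6 lower with a median of 0.04, beside 14.7% and 15.4% of all tested genes. Against ITGB4 high, lung-recovered cells gave medians of 0.42 for the 9 genes and 0.24 for the 23.

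The genes lie on many chromosomes, and each was set beside its neighbours. The median log2 fold change of other tested genes within 5 Mb ran from -0.34 to 0.33 in ITGB4 low against ITGB4 high, and passed 0.3 in size for SEC61A1 (-0.32), SSR3 (-0.34) and SEC24D (0.33). The genes' own fold changes exceeded their neighbours' median for 27 of the 35 genes, with a median difference of 0.31 on the log2 scale over the 35. Of the same 35 genes, 28 had a positive log2 fold change. The share of all tested genes that exceed their neighbours was not computed, so the count is a description only. SEC24D, at 0.97, stood above its raised neighbourhood, as did PDIA6, at 0.48 with a neighbour median of 0.28, and SEC61A1 and SSR3, both at 0.17, above lowered ones. Whether gene copy number differs between the groups was not tested.

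**Figure D5:**
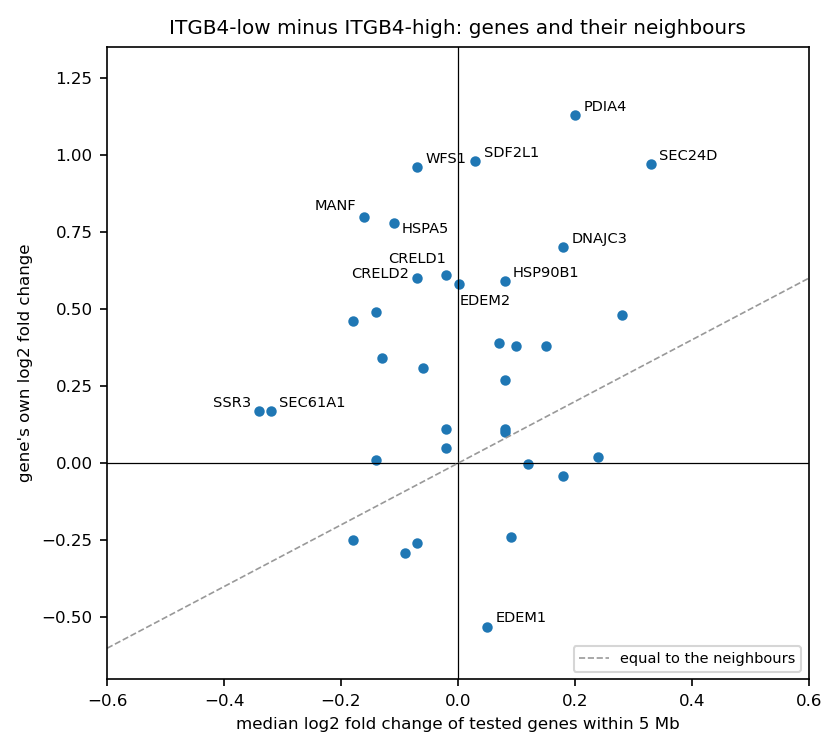
Log2 fold change of each of the 35 genes in ITGB4 low against ITGB4 high (vertical axis) against the median log2 fold change of all other tested genes within 5 Mb (horizontal axis), with the line of equal values dashed. Of the 35 points, 27 lie above the line. Neighbour medians span -0.34 to 0.33, whereas the genes themselves span -0.53 to 1.13.

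Other genes of the same pathway were taken from lists written by function, but with earlier results of these data known. Counts over these lists are therefore a description and no independent test. Of 38 other ER folding enzymes, 16 were higher and 9 lower in ITGB4 low than in ITGB4 high (28.6% and 27.6% of all tested genes), with a median log2 fold change of 0.04. HYOU1, the exchange factor and large Hsp70 partner of HSPA5, was at 459.7 ± 7.78 CPM in ITGB4 high (SD, n = 2) and 894 ± 24.7 CPM in ITGB4 low (n = 3), a rise of 0.96 on the log2 scale (SE 0.048, edgeR adjusted p = 1.37e-12). SERPINH1 (HSP47), the collagen chaperone, rose by 0.97, and the isomerase TXNDC5 (log2 -0.47) and the ATPase TOR3A (-0.32) fell. In lung-recovered against ITGB4 low cells, 3 of the 38 were higher and 10 lower (14.7% and 15.4% of all). The prolyl isomerase FKBP14 (log2 0.25) and TOR3A (0.24) rose, while FKBP7 (-0.32) and the glycoprotein folding sensor UGGT2 (-0.31) fell. Between lung-recovered and ITGB4 high cells, 11 were higher and 9 lower (26.2% and 25.0% of all), with a median of 0.02. The prolyl isomerase FKBP11 (log2 0.86) and HYOU1 (0.82) were among the higher genes, and TXNDC5 (-0.55) and FKBP7 (-0.43) among the lower.

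Of 29 other tested degradation genes, 7 were higher and 12 lower in ITGB4 low than in ITGB4 high, against 28.6% and 27.6% of all genes. DERL2, a relative of DERL1, rose by 1.01 (SE 0.079, edgeR adjusted p = 1.68e-09), and SEL1L3 (log2 -0.68) and the ligase RNF5 (-0.37) fell. RNF185, a ubiquitin ligase of the ER membrane, was at 57.7 ± 1.49 CPM in ITGB4 high (SD, n = 2), 139.7 ± 2.8 CPM in ITGB4 low (n = 3) and 47.9 ± 0.987 CPM in lung-recovered cells (n = 3). It had the largest difference of the 29 in both comparisons with ITGB4 low, 1.27 against ITGB4 high and -1.54 in lung-recovered cells on the log2 scale. Between lung-recovered and ITGB4 low cells, 4 of the 29 were higher in the former, SEL1L3 (log2 0.23) and FAM8A1 (0.18) among them, and 4 lower, the lectin OS9 (-0.19) included, against 14.7% and 15.4% of all. Against ITGB4 high, 5 were higher in lung-recovered cells and 11 lower (26.2% and 25.0% of all), among them DERL2 (log2 1.10) and the lectin ERLEC1 (0.36) on one side and SEL1L3 (-0.46) on the other.

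Among 31 other translocation and glycosylation genes, 10 were higher and 10 lower in ITGB4 low than in ITGB4 high, near the 28.6% and 27.6% of all genes. TRAM2, a translocon protein linked to collagen synthesis, rose by 0.84 and the oligosaccharyltransferase subunit OST4 by 0.56 on the log2 scale, while TUSC3, also of that enzyme (log2 -0.55), and the signal peptidase subunit SPCS1 (-0.39) fell. Lung-recovered cells had 4 of the 31 higher and 3 lower than ITGB4 low cells (14.7% and 15.4% of all). SPCS3 (log2 0.39) and SSR2 (0.27) rose, and TRAM2 (-0.70) and MAGT1 (-0.21) fell. Against ITGB4 high, 9 were higher in lung-recovered cells, such as SEC11C (log2 0.56) and STT3A (0.49), and 6 lower, such as TUSC3 (-0.35) and SPCS1 (-0.34), beside 26.2% and 25.0% of all.

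Of 24 other tested genes of the COPII coat and its cargo receptors, 7 were higher and 4 lower in ITGB4 low than in ITGB4 high, near the 28.6% of all genes that were higher and under the 27.6% that were lower. KDELR3, a receptor that returns chaperones to the ER, was at 7.07 ± 0.298 CPM in ITGB4 high (SD, n = 2) and 25.4 ± 1.68 CPM in ITGB4 low (n = 3; log2 1.84, SE 0.094, edgeR adjusted p = 2.07e-12). The coat subunit SEC23A rose by 0.61, while TFG (log2 -0.32), which organises ER exit sites, and the coat subunit SEC24C (-0.26) fell. Of the 24, 4 were higher in lung-recovered than in ITGB4 low cells, SEC24C (log2 0.36) and PREB (0.34) among them, and 2 lower, KDELR3 (-0.27) and SEC23A (-0.19), beside 14.7% and 15.4% of all. Against ITGB4 high, 10 were higher in lung-recovered cells and 5 lower (26.2% and 25.0% of all), with KDELR3 (log2 1.57) and SEC23B (0.61) among the higher and TFG (-0.37) and SEC24B (-0.24) among the lower.

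Of 28 other tested regulators of the response, 8 were higher and 11 lower in ITGB4 low than in ITGB4 high, against 28.6% and 27.6% of all genes. CREB3L1 (OASIS), a membrane-bound transcription factor cut and released as ATF6 is and known to drive collagen genes, was at 28.2 ± 1.55 CPM in ITGB4 high (SD, n = 2), 124 ± 7.26 CPM in ITGB4 low (n = 3) and 72.5 ± 5.82 CPM in lung-recovered cells (n = 3). Its log2 fold changes were 2.14 in ITGB4 low against ITGB4 high (edgeR adjusted p = 4.35e-15) and -0.78 in lung-recovered against ITGB4 low cells (edgeR adjusted p = 1.85e-09). The secreted glycoprotein STC2, known as a stress response gene, rose by 0.99. TRAF2 and MAP3K5 (ASK1), which link ERN1 to the JNK kinase pathway, were both lower in ITGB4 low (log2 -0.82 each), and in lung-recovered against ITGB4 low cells they were higher, by 0.53 and 1.86. In that comparison 7 of the 28 were higher and 3 lower (14.7% and 15.4% of all), DNAJB2 (log2 -0.33) among the lower. Against ITGB4 high, 9 were higher in lung-recovered cells, such as CREB3L1 (log2 1.36) and MAP3K5 (1.04), and 9 lower, such as TMEM33 (-0.39) and the NF-Y subunit NFYA (-0.38), beside 26.2% and 25.0% of all.

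Some counts are uncertain because exons overlap those of an expressed gene and the strand setting of the counting is not given in the sources used here. This holds for DNAJB9 (with PNPLA8 and THAP5), CRELD2 (with ALG12), SEC61A1 (with RUVBL1), DERL1 (with TBC1D31) and SYVN1 (with MRPL49). SYVN1 also overlaps FAU, and SEC31A overlaps THAP9-AS1, each on the same strand. For these pairs the counts are uncertain whatever the strand setting. FAU had 92612 counts over all libraries and SYVN1 11813, while THAP9-AS1 had 14479 and SEC31A 36652.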

How the data were processed

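The deposited values are raw counts of reads per gene, whole numbers in 1 column per library, which the authors had not normalised. STAR 2.7.1a and build hg38 are named in the submitters' processing notes, and polyadenylated RNA in the labels. The counter, its strand setting and the annotation were not given in the sources used here. Of 58336 genes, 58216 matched GENCODE 29, which gave symbols, coordinates and exon lengths. All 8 libraries entered 1 fit in edgeR 4.0.16 (R 4.3.3) with a term per group, filterByExpr, TMM scaling and the quasi-likelihood F test, adjusted by Benjamini-Hochberg over 15220 genes. The fit was tested on simulated data first. CPM are TMM-scaled, and RPKM are CPM per kilobase of exon. Standard errors are log2 fold changes over the root of F. The alternatives were DESeq2 1.42.0, limma-voom 3.58.1, other scalings, no low-count filter, 2 groups only, a replicate block and each library left out.

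The members and the pathway lists were chosen with earlier results of these data known. Named are all members and, per pathway list and comparison, up to 2 called genes with the largest rise and 2 with the largest fall among those with at least 10 CPM in a group. A gene that this rule selects is not reported here. The labels do not say which cultures or animals the replicates came from, and p-values reflect only how these libraries vary. Same-numbered libraries did not deviate together (r from -0.07 to 0.04), so numbers were not taken as pairs.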

Additional observations from a re-analysis of the deposited data

How the results depend on the processing

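The counts of higher and lower genes among the 35 stayed within 1.5 times the main count under the other scalings, tools and filters, and over 1680 checks of single genes call and direction held in 1602, a call was lost in 38 and gained in 13, and the direction turned in 27. With a 1.5-fold limit added, the counts of higher and lower genes were 10 and 0 in ITGB4 low against ITGB4 high, 0 and 0 in lung-recovered against ITGB4 low, and 7 and 0 in lung-recovered against ITGB4 high. Leaving out 1 library in turn, the count lower in lung-recovered than in ITGB4 low ran from 5 (without lung-recovered replicate 1) to 10, and the count higher from 4 to 7.

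Genes that turned were not called in that comparison. In ITGB4 low against ITGB4 high, leaving out 1 library gave CANX -0.03 to 0.03, EIF2AK3 -0.02 to 0.05 and OSTC -0.06 to 0.04 on the log2 scale. OSTC was 0.02 with upper-quartile scaling and 0.00095 with 2 groups only. In lung-recovered against ITGB4 low, CALR was -0.09 to 7.6e-05, DNAJB9 -0.01 to 0.11, ERN1 -0.0012 to 0.15, EIF2AK3 -0.10 to 0.05 and SEC24D -0.09 to 0.02. In lung-recovered against ITGB4 high, CANX was -0.02 to 0.05, XBP1 -0.06 to 0.01 and EIF2AK3 -0.08 to 0.08. EIF2AK3 there was -0.0016 with DESeq2 size factors, -0.0032 with no filter, -0.0041 with DESeq2 and -0.0019 with limma-voom. The cause was not tested.

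With the replicate number as a block, CANX was -0.00036 in ITGB4 low against ITGB4 high, EIF2AK3 was -0.02 in lung-recovered against ITGB4 high, and 22 genes were higher and 5 lower in ITGB4 low than in ITGB4 high, 5 and 7 in lung-recovered than in ITGB4 low, and 21 and 2 in lung-recovered than in ITGB4 high.

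Some counts over the other pathway genes moved by more than 1.5 times. In ITGB4 low against ITGB4 high, the 9 lower folding enzymes became 5 with DESeq2 and 5 without ITGB4 high replicate 1. Between lung-recovered and ITGB4 low cells, the 4 higher degradation genes became 2 without ITGB4 low replicate 2 or 3 or lung-recovered replicate 2 or 3. The 4 lower ones became 2 with DESeq2, with the replicate block, and without ITGB4 low replicate 2 or 3 or lung-recovered replicate 1 or 3. The 3 lower translocation genes became 5 without lung-recovered replicate 3. The 7 higher regulators became 4 without ITGB4 low replicate 2 and 3 without lung-recovered replicate 1, and the 3 lower became 5 with upper-quartile scaling or without ITGB4 low replicate 1. The 2 higher genes of the PERK and ATF4 arm became 1 without ITGB4 low replicate 2 or lung-recovered replicate 1 or 3, and the 5 higher heat shock genes became 2 without ITGB4 low replicate 2 or 3 or lung-recovered replicate 2. Against ITGB4 high, the 6 translocation genes lower in lung-recovered cells became 3 without ITGB4 high replicate 1. The 5 lower COPII genes became 3 with no filter, with DESeq2, and without either ITGB4 high library or lung-recovered replicate 3. The 7 lower heat shock genes became 4 without ITGB4 high replicate 1 or lung-recovered replicate 3 and 3 without lung-recovered replicate 1.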

Other observations

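The genes of the PERK and ATF4 arm can be switched on by EIF2AK3, whose activity was not measured. Of 20 such genes, 6 were higher and 8 lower in ITGB4 low than in ITGB4 high, against 28.6% and 27.6% of all tested genes. The median log2 fold change over the 20 was -0.07. CHAC1, a glutathione-degrading enzyme of that arm, was at 60.5 ± 0.261 CPM in ITGB4 high (SD, n = 2) and 107 ± 11.1 CPM in ITGB4 low (n = 3), higher by 0.82 on the log2 scale (SE 0.074, edgeR adjusted p = 1.22e-08), and CTH, of cysteine synthesis, rose by 0.86. ASNS, the asparagine synthetase, fell by 0.46 and the cystine transporter SLC7A11 fell by 0.23. In lung-recovered against ITGB4 low cells, 2 of the 20 were higher and 7 lower (14.7% and 15.4% of all). PPP1R15A, which restores translation, rose by 0.14, and ATF5 (log2 -0.37) and ATF3 (-0.35) were the furthest down among genes of at least 10 CPM. Against ITGB4 high cells, 4 were higher and 12 lower in the lung-recovered libraries (26.2% and 25.0% of all). CHAC1 (log2 0.65) and CTH (0.61) were among the higher, and ASNS (-0.34) and TRIB3 (-0.32), an inhibitor of that arm, among the lower.

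Of 22 cytosolic and mitochondrial heat shock genes, 9 were higher and 8 lower in ITGB4 low than in ITGB4 high, beside 28.6% and 27.6% of all tested genes. HSP90AA1, the inducible cytosolic Hsp90, was at 468 ± 2.17 CPM in ITGB4 high (SD, n = 2) and 754 ± 26.4 CPM in ITGB4 low (n = 3; log2 0.69, SE 0.056, edgeR adjusted p = 2.82e-09), and HSPB1 rose by 0.72, while FKBP4 (log2 -0.39) and the mitochondrial co-chaperonin HSPE1 (-0.36) fell. Lung-recovered cells had 5 of the 22 higher and 4 lower than ITGB4 low cells (14.7% and 15.4% of all), with a median of 0.07. The mitochondrial chaperonin HSPD1 (log2 0.20) and HSPH1 (0.18) rose, and DNAJB4 (-0.75) and HSPB1 (-0.32) fell. Against ITGB4 high, 8 were higher in lung-recovered cells, such as HSP90AA1 (log2 0.75) and HSPA4L (0.47), and 7 lower, such as FKBP4 (-0.32) and HSPE1 (-0.23), beside 26.2% and 25.0% of all.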
